A study of Mus musculus with 2 samples.

Results

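The nuclei described here were picked from single-nucleus RNA sequencing of epididymal white adipose tissue by 6 genes of dendritic cells (DCs): Flt3, Clec9a, Zbtb46, Xcr1, Wdfy4 and Itgae. A nucleus was a member when these genes together gave at least 3 unique molecular identifiers (UMIs, each a captured RNA molecule) and at least 0.15% of its UMIs, with at most 1 UMI of B-cell genes and at most 1 of T-cell genes. Of 16477 eligible nuclei 246 were members, 152 of the 8618 HF-PBS nuclei and 94 of the 7859 HF-HHT nuclei. They are called DC-gene nuclei here.

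Both groups were male C57BL/6 N mice, 8 weeks old at the start, which were fed a fat-rich diet (HF) over 6 weeks and kept on it for another 8 weeks while PBS or homoharringtonine (HHT) was injected into the peritoneum 3 times a week. HHT is a plant alkaloid that blocks translation elongation. Frozen tissue of 3 mice was pooled for each condition, and DAPI-stained nuclei were sorted by flow cytometry into 1 library per condition. Without replicate libraries no difference was tested: intervals are exact 95% intervals that cover counting error only, and "higher" or "lower" means a difference of at least 1.5-fold between the libraries, a statement of size alone. Where a pair of values follows without names, the HF-PBS value stands first and the HF-HHT value after it.

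Conventional DCs take up antigen and present it to T cells. The cDC1 subset, marked by Clec9a and Xcr1 and dependent on Irf8 and Batf3, presents antigen of dead cells on MHC class I, whereas the cDC2 subset, marked by Sirpa and Irf4, mainly presents on MHC class II to helper T cells. FLT3, the receptor of FLT3 ligand, sustains both subsets, and after activation DCs switch on Ccr7 and Fscn1 and migrate to lymph nodes. In adipose tissue DCs lie among far more numerous macrophages and take part in the immune response to obesity.

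The libraries held 76197757 UMIs (HF-PBS) and 73313558 UMIs (HF-HHT), with a median of 4073 and 4007 UMIs per eligible nucleus. DC-gene nuclei were shallower, with medians of 2932 UMIs (range 564 to 16757) and 2725 UMIs (806 to 12082). Eligible nuclei of both libraries shared 20 barcodes, none of them a DC-gene nucleus. The tissue pools differed widely in makeup. Nuclei classed as macrophages made up 48.5% and 22.2% of eligible nuclei, adipocytes 3.64% and 17.7%, and B cells 8.12% and 0.280%. Epithelial nuclei numbered 0 of 8618 (exact upper bound 0.0428%) and 815 of 7859 (10.4%). Haemoglobin and other erythroid genes were at 30.7 and 1804 CPM (UMIs of a gene per 1000000 UMIs) in the free RNA of near-empty droplets.

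The 6 genes that chose the members are given as a description. Flt3 (chromosome 5, 147330741 to 147400489, mm10) was at 450 CPM (233 UMIs in 84 nuclei) in HF-PBS members and 400 CPM (116 UMIs in 43 nuclei) in HF-HHT members, against 4.23 and 1.58 CPM in all other eligible nuclei. Clec9a (chromosome 6, 129408862 to 129424763), a receptor for actin exposed on dead cells, was at 724 CPM (375 UMIs in 74 nuclei) and 272 CPM (79 UMIs in 24 nuclei). Zbtb46, a transcription factor of conventional DCs, was at 710 and 731 CPM. Wdfy4, needed for cross-presentation, was at 3581 and 2138 CPM. Xcr1 (chromosome 9, 123852315 to 123862029), the receptor of XCL1, had only 12 UMIs in each library, and of the 21 Itgae UMIs of HF-HHT members 14 came from 1 nucleus. Wdfy4 is not particular to DCs: nuclei classed as B cells held 1170 and 1568 CPM of it. Neither is Zbtb46, the only rule gene found in 107 of 314 and 351 of 1389 nuclei classed as adipocytes. The same was so in 218 of 589 and 166 of 603 nuclei classed as adipocyte progenitors. With Zbtb46 left out of the rule, its log2 ratio of HF-HHT over HF-PBS in the members was -0.49 (-0.84 to -0.15).

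The limit of 0.15% ran through a continuous range. The lowest share held by a member was 0.1511% and 0.1502%, and the highest share among nuclei left out for it was 0.1491% and 0.1497%. Exactly 3 rule UMIs were held by 22 and 20 members, and 15 and 19 more nuclei missed membership with 2. The B- and T-cell limits took out 215 of 367 and 15 of 109 nuclei that passed the 6 genes, among them 16 and 0 nuclei with a Clec9a or Xcr1 UMI.

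The dendritic label fitted part of the members. A Clec9a or Xcr1 UMI was present in 74 HF-PBS and 27 HF-HHT members, called Clec9a/Xcr1 nuclei here. A Flt3 UMI without either was present in 28 and 20, called Flt3-only nuclei. The remaining 50 and 47 members had none of the 3 genes. They qualified through Wdfy4 alone in 30 and 23 nuclei, Zbtb46 alone in 4 and 11 and both in 16 and 12. The subsets carried different gene groups. The cDC1 list summed to 12027 CPM (HF-PBS) and 8098 CPM (HF-HHT) in Clec9a/Xcr1 nuclei, above the 4221 and 2604 CPM of free RNA, and to 3326 and 2283 CPM in Flt3-only nuclei. The mature DC list reached 5894 and 5944 CPM in Flt3-only nuclei but 1445 and 1878 CPM in Clec9a/Xcr1 nuclei. Nuclei without the 3 genes held 6153 and 3167 CPM of macrophage markers, near the 6056 and 2574 CPM of free RNA, and 28 of 50 and 15 of 47 of them had at least 5 UMIs of the macrophage class genes. They held 324 and 1564 CPM of endothelial and mural markers, against 149 and 162 CPM in free RNA. The cDC2 list reached 9661 and 7634 CPM there, above the 5345 and 3493 CPM of free RNA. Zeb2, which macrophages share, gave 1094 of the 1253 and 824 of the 986 UMIs of that list, and macrophages held 9295 and 9947 CPM of it.

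**Figure D1:**
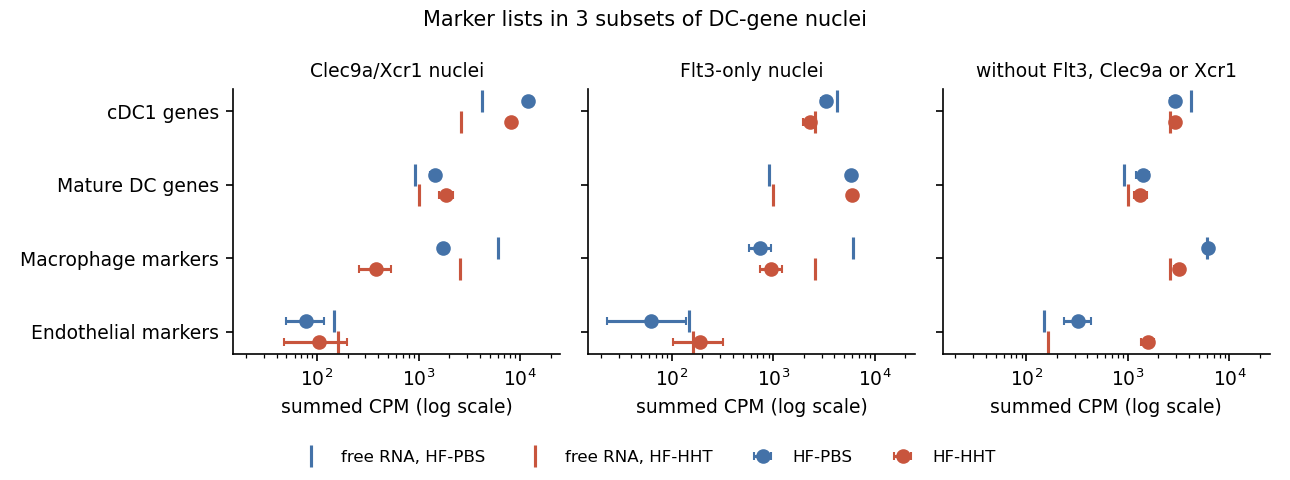
Summed CPM (log scale) of 4 gene lists in the 3 subsets of DC-gene nuclei, with exact 95% counting intervals; vertical ticks mark the level in free RNA. The cDC1 list stands above free RNA in Clec9a/Xcr1 nuclei (12027 and 8098 CPM), the mature DC list in Flt3-only nuclei (5894 and 5944 CPM), and the endothelial list in nuclei without Flt3, Clec9a or Xcr1 (324 and 1564 CPM).

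Genes outside the rule that set DC-gene nuclei apart from all other eligible nuclei were led by receptors and regulators of DCs. Since they describe the nuclei the rule picked, they carry no test. Klri1, a lectin-like receptor, was 48.7- and 44.4-fold above the other nuclei. Zfp366, the DC transcriptional regulator also known as DC-SCRIPT, was 46.9- and 40.8-fold above, and the serotonin receptor gene Htr7 181- and 36.5-fold. Kmo, which encodes kynurenine 3-monooxygenase of tryptophan breakdown, was 21.2- and 23.7-fold above, and the corepressor Cbfa2t3 19.8- and 25.4-fold. The other leading genes were Mreg, Dscam, Cacnb3, Ppef2, Jaml, Cd244a and Ctnnd2, at 15.1- to 44.9-fold. They split by subset. Ppef2, which encodes a phosphatase, had 73 of its 75 HF-PBS UMIs and 39 of its 42 HF-HHT UMIs in Clec9a/Xcr1 nuclei. Dscam, an adhesion gene, had 87 of 99 and 58 of 61 UMIs in Flt3-only nuclei, from 11 members in each library. Mreg had 42 of 46 and 55 of 58 there.

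DC-gene nuclei made up 1.76% of eligible nuclei in HF-PBS (1.496 to 2.06%) and 1.20% in HF-HHT (0.968 to 1.46%), a log2 ratio of HF-HHT over HF-PBS of -0.56 (-0.95 to -0.18), which is 1.47-fold and short of the 1.5-fold mark. Clec9a/Xcr1 nuclei were 2.50-fold lower in HF-HHT, at 0.859% (0.675 to 1.08%) against 0.344% (0.227 to 0.499%), a log2 ratio of -1.32 (-2.01 to -0.67). Flt3-only nuclei were at 0.325% and 0.254% (-0.35, interval -1.26 to 0.53), and nuclei without the 3 genes at 0.580% and 0.598% (0.044, interval -0.56 to 0.65). Clec9a/Xcr1 nuclei therefore formed 48.7% (40.5 to 56.9%) of HF-PBS members and 28.7% (19.9 to 39.0%) of HF-HHT members.

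These shares depended on the denominator. Without epithelial nuclei the log2 ratio was -0.40 for all members and -1.16 for Clec9a/Xcr1 nuclei. Among nuclei with a UMI of the leukocyte gene Ptprc, DC-gene nuclei were at 2.01% (138 of 6856) and 1.93% (82 of 4259), a log2 ratio of -0.064 (-0.48 to 0.34), and Clec9a/Xcr1 nuclei at 1.05% and 0.610%, a log2 ratio of -0.78 (-1.49 to -0.12). With every nucleus thinned to 1000 UMIs, which left out 753 and 861 shallower nuclei, all members numbered 131 of 7865 and 61 of 6998, a log2 ratio of -0.93 (-1.40 to -0.49), which is beyond 1.5-fold. Clec9a/Xcr1 nuclei numbered 51 of 7865 and 15 of 6998, a log2 ratio of -1.60 (-2.53 to -0.74).

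**Figure D2:**
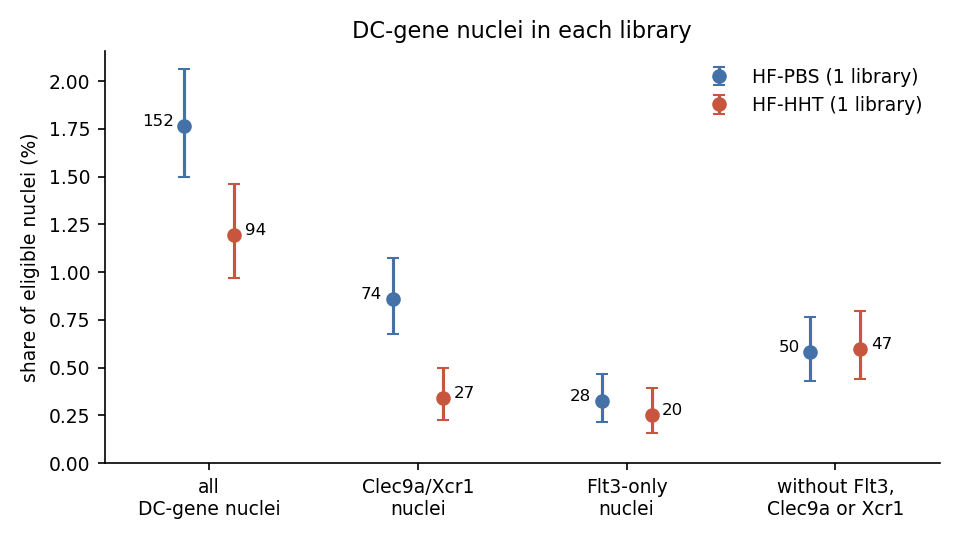
Share of eligible nuclei (%) in the HF-PBS and HF-HHT libraries for all DC-gene nuclei and their 3 subsets, with exact 95% binomial intervals and the number of nuclei beside each point. Clec9a/Xcr1 nuclei were at 0.859% and 0.344%, while nuclei without Flt3, Clec9a or Xcr1 were at 0.580% and 0.598%.

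Nuclei with genes of mature, migrating DCs were few in both libraries. At least 2 UMIs over Ccr7, Fscn1, Cacnb3, Ccl22 and Socs2 were found in 8 of 152 HF-PBS members (5.26%, 2.30 to 10.1%) and 9 of 94 HF-HHT members (9.57%, 4.47 to 17.4%), and the intervals overlapped. The same count passed in 6.09% and 3.54% of all other eligible nuclei, which were deeper (medians 4110 and 4040 UMIs). Flt3-only nuclei held most of them, 6 of 28 and 6 of 20, against 1 of 74 and 1 of 27 Clec9a/Xcr1 nuclei.

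Levels were compared between the libraries by summing UMIs over members. Members held 518222 and 289982 UMIs in all, and Clec9a/Xcr1 nuclei 293517 and 86812. Pairs of UMI counts are not scaled for these totals, while CPM and ratios are. Among 5903 genes with at least 20 UMIs over both libraries, 1219 (20.7%) were higher in HF-HHT members and 787 (13.3%) lower, and 661 (11.2%) and 430 (7.28%) of these also had a counting interval that left out equality. In Clec9a/Xcr1 nuclei 3658 genes were measured, of which 733 (20.04%) were higher and 751 (20.5%) lower, 292 (7.98%) and 282 (7.71%) with such an interval. The median log2 ratio over all measured genes was 0.08 in members and 0.03 in Clec9a/Xcr1 nuclei. These shares are the background for the lists below in members and in Clec9a/Xcr1 nuclei. In macrophages no such share was counted, and the median over their 14950 measured genes was 0.19. Nor was it counted in nuclei with a Flt3, Clec9a or Xcr1 UMI, where the median over 4658 genes was 0.05.

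Genes of the cDC1 program were lower in HF-HHT members: 9 of the 17 measured were lower and 1 was higher (median log2 ratio -0.69). Cadm1 (chromosome 9, 47530173 to 47857637), an adhesion molecule of cDC1, was at 2923 CPM (1515 UMIs in 93 nuclei) and 566 CPM (164 UMIs in 28 nuclei), a log2 ratio of -2.37 (-2.61 to -2.14). Rab43, a GTPase of cross-presentation, was at 1135 and 648 CPM (-0.81, interval -1.05 to -0.57). The nucleic acid sensor Tlr3 had 37 and 10 UMIs and Gcsam 30 and 5. By contrast the cDC1 transcription factors Irf8 (492 and 476 CPM, log2 ratio -0.048) and Batf3 (84.9 and 79.3 CPM, -0.10) and the hydrolase gene Naaa (430 and 459 CPM, 0.09) differed little. As HF-HHT members held a smaller part of Clec9a/Xcr1 nuclei, these sums mix the number of such nuclei with the level in each.

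Within Clec9a/Xcr1 nuclei the cDC1 list stood closer to equality, with 6 of 16 lower, 2 higher and a median of -0.25, and the lower share of 20.5% over all genes is the background. Cadm1 was still 3.57-fold lower, at 4817 CPM (1414 UMIs) against 1348 CPM (117 UMIs), a log2 ratio of -1.84 (-2.12 to -1.56). In macrophages its log2 ratio was -1.04. Cadm1 UMIs were present in 66 of 74 and 16 of 27 Clec9a/Xcr1 nuclei, whose median rule UMIs were 28 and 15. For Cadm1 and other genes of this subset, a smaller part of cDC1 nuclei inside it cannot be told apart from a lower level per nucleus. Rab43 (-0.26, interval -0.57 to 0.045) and Tlr3 (-0.24, interval -1.48 to 0.84) were within counting error of equality. Irf8 (229 and 98 UMIs, log2 ratio 0.53, interval 0.18 to 0.88) and Naaa (206 and 110 UMIs, 0.85, interval 0.51 to 1.19) were above their HF-PBS level, Irf8 by less than 1.5-fold.

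Several surface and signalling genes of Clec9a/Xcr1 nuclei had few UMIs in HF-HHT. Trabd2b, which encodes a WNT-cleaving protease, had 121 and 4 UMIs (log2 ratio -3.16, interval -5.06 to -1.77). Itga8, the integrin alpha 8 gene, had 54 and 2 UMIs in these nuclei (-3.00, interval -6.08 to -1.07), and 15 of the HF-PBS members carried it. Havcr2, the gene of the inhibitory receptor TIM-3, had 147 and 13 UMIs (-1.74, interval -2.68 to -0.92), and P3h2, a collagen prolyl hydroxylase gene, 255 and 31 (-1.28, interval -1.87 to -0.74). Kit, the stem cell factor receptor gene, had 92 and 14 (-0.96, interval -1.89 to -0.14). In macrophages Trabd2b (-1.86) and Havcr2 (-0.77) had log2 ratios of the same sign, and P3h2 (1.45), Itga8 (2.51) and Kit (0.71) of the opposite sign, Itga8 from levels of only 0.338 and 1.93 CPM. Over all members, among genes with at least 30 UMIs in the higher library, 3 in the other and 2 times the level of free RNA, the lowest included Trabd2b, Mras, Itga8, Dpp10, Cadm1, Havcr2, Gtf2ird2, Adam22 and P3h2, at log2 ratios of -4.21 to -1.81. Of the 57 Dpp10 UMIs of HF-PBS 24 came from 1 nucleus.

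Other genes of Clec9a/Xcr1 nuclei were higher in HF-HHT, and 4 of them, picked after the values were seen, are given here. The adaptor gene Grap2 had 50 and 52 UMIs, which is 170 and 599 CPM and a log2 ratio of 1.81 (1.23 to 2.40). Kynu, the kynureninase gene, had 39 and 34 UMIs (1.56, interval 0.85 to 2.26), the chemokine receptor gene Ccr2 68 and 53 (1.40, interval 0.85 to 1.94) and the cystatin C gene Cst3 69 and 51 (1.32, interval 0.77 to 1.86). In macrophages Kynu (1.31), Ccr2 (1.75) and Cst3 (1.69) had log2 ratios of the same sign and Grap2 (-1.03) of the opposite sign. Monocyte markers, a list that includes Ccr2, summed to 433 and 1037 CPM in these nuclei, and 7 and 126 eligible nuclei were classed as monocytes. Their part in the Ccr2 difference was not tested.

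Genes of plasmacytoid DCs, which produce type I interferon, summed to 1277 and 2252 CPM in the members. Free RNA held 1088.5 and 704 CPM of the list, and macrophages 1395 and 1288 CPM. Of the 8 measured, 4 were higher and 2 lower (median 0.46). Tcf4, the master regulator of that lineage, had 327 and 386 UMIs (631 and 1331 CPM, log2 ratio 1.08, interval 0.86 to 1.29), and Runx2 141 and 148 (0.91, interval 0.57 to 1.25). Free RNA held 707 and 393 CPM of Tcf4, and macrophages 862 and 721 CPM. Within Clec9a/Xcr1 nuclei a single HF-HHT nucleus gave 67 of the 130 Tcf4 UMIs and one gave 38 of the 86 Runx2 UMIs. Siglech, which marks plasmacytoid DCs, had 9 and 14 UMIs, 10 of the latter in 1 nucleus. No separate group of plasmacytoid DCs was delimited here.

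Of antigen presentation genes, those of MHC class II were mostly within 1.5-fold, with 2 of 14 higher and 2 lower (median 0.13). Cd74, the invariant chain, was at 679 and 793 CPM (0.22, interval -0.022 to 0.47), whereas the protease gene Lgmn had 202 and 59 UMIs (-0.94, interval -1.38 to -0.51). Lgmn is also a macrophage gene, and in Clec9a/Xcr1 nuclei it had 81 and 3 UMIs (-3.00, interval -5.30 to -1.40). Of 19 genes of MHC class I and cross-presentation 9 were higher and 1, Rab43, lower (median 0.54). The chaperone gene Calr had 16 and 27 UMIs (1.59, interval 0.65 to 2.58), and Cybb, an oxidase subunit gene of phagosomes, 52 and 83 (1.51, interval 0.99 to 2.04). The same list had 18 of 23 higher in macrophages (median 1.44). In members the list summed to 3971 and 4645 CPM, against 4115 and 6989 CPM in free RNA.

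Genes of uptake receptors and C-type lectins were lower in Clec9a/Xcr1 nuclei, 6 of 9 with 1 higher and a median of -1.70. Over all members 8 of 17 were lower and 4 higher (median -0.20). Clec9a, a gene of the rule that chose the members, is among the 8. In Clec9a/Xcr1 nuclei Clec9a was within 1.5-fold (-0.49). Cd36, a scavenger receptor gene, had 274 and 28 UMIs in Clec9a/Xcr1 nuclei (-1.53, interval -2.15 to -0.97). Fcgr2b, the inhibitory Fc receptor gene, had 56 and 5 (-1.73, interval -3.41 to -0.42). Much of this list is also expressed by macrophages, and macrophage markers summed to 1755 and 380 CPM in the same nuclei (7 of 8 measured markers lower), against 6056 and 2574 CPM in free RNA. Their part in the lectin difference was not tested.

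Genes of maturation gave a mixed picture. Of 18 measured mature DC genes 10 were higher and 1 lower over all members (median 0.66), but the median was -0.054 over 6 genes in Clec9a/Xcr1 nuclei and -0.061 in members outside them. In nuclei with a Flt3, Clec9a or Xcr1 UMI, a split chosen after seeing the data, 10 of 17 were higher and 1 lower (median 0.83). Relb, an NF-kB subunit of DC maturation, had 49 and 71 UMIs (94.6 and 245 CPM, log2 ratio 1.37, interval 0.83 to 1.93), and Ccl5, a chemokine gene, 9 and 21 (2.06, interval 0.87 to 3.37). In members without Clec9a or Xcr1 the log2 ratio of Relb was 0.54 (-0.046 to 1.14). The costimulatory genes Cd83 (133 and 47 UMIs, -0.66, interval -1.18 to -0.17) and Cd86 (209 and 81 UMIs, -0.53, interval -0.92 to -0.15) were below their HF-PBS level, Cd86 by less than 1.5-fold. Of 12 ligands that signal to T cells 3 were higher and 2, Cd83 and Havcr2, were lower.

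Receptors for growth factors and cytokines were near equality, with 2 of 16 higher, 1 (Kit) lower and a median of -0.13. The 16 include the rule gene Flt3. Of 22 DC transcription factors 7 were higher and 1 lower (median 0.11), and Zeb2 was at 3865 and 3762 CPM. Of 14 receptors of migration 6 were higher and 1 lower (median 0.31). Among 14 sensors of pathogens and damage 7 were higher and 2 lower (median 0.60), though the median was -0.10 over the 6 measured in Clec9a/Xcr1 nuclei. Of 5 measured cytokine and chemokine genes 3 were higher and 1 lower (median 0.74), and Il15, which sustains T and NK cells, was at 172 and 179 CPM. The cDC2 list had 4 of 9 higher and 3 lower (median -0.039). Its member Cd209a had 23 and 4 UMIs (-1.69, interval -3.68 to -0.14), while Clec12a had 34 and 48 (1.34, interval 0.67 to 2.01).

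Interferon response genes were higher throughout. All 13 measured were at least 1.5-fold higher in HF-HHT members, 12 with an interval that left out equality, against 20.7% and 11.2% over all genes, and the median log2 ratio was 1.85. The list summed to 735 and 2897 CPM. Gbp5, a guanylate-binding protein of cell defence, had 5 UMIs in 4 HF-PBS nuclei and 59 UMIs in 21 HF-HHT nuclei (4.40, interval 3.09 to 6.07), and the immunity-related GTPase gene Iigp1 had 12 and 109 UMIs (4.02, interval 3.16 to 5.02). Parp14 had 50 and 109 UMIs (1.96, interval 1.47 to 2.48). In Clec9a/Xcr1 nuclei all 6 measured were higher (median 1.66). The difference was not particular to DCs. In macrophages 26 of 27 were higher (median 2.23), and free RNA held 605 and 2290 CPM of the list. With free RNA subtracted the median in members was 1.89.

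The bases before the start sites of the 13 measured interferon response genes were searched for the core of the interferon-stimulated response element. It was taken as 2 copies of GAAA spaced by 2 bases, on both strands (TTTC on the other). Of the 13 genes 8 had a promoter entry in RefSeq (GRCm38.p6), with 11 entries in all, and the letters lay within 250 bases before the start in 4 of these 11 entries (of Gbp2, Gbp3, Gbp5 and Stat2), against 978 of 32851 entries of all genes (2.98%). The 3 shown run 5' to 3' on the gene's strand, which is + for all, and the match is in capitals. It begins 59 bases before the start in Gbp2 (chr3:142620413-142620662), 165 in Gbp5 (chr3:142496684-142496933) and 222 in Stat2 (chr10:128270248-128270497). A match is a description and not a measured binding site. The 13 genes came from a list of interferon response genes, so the share of matches describes that list. It is no test of the difference between the libraries.
Gbp2: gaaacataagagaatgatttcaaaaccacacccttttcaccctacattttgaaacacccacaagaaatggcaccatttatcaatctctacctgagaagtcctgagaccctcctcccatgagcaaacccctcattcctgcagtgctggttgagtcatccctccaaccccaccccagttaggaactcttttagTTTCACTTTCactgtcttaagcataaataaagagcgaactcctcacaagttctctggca
Gbp5: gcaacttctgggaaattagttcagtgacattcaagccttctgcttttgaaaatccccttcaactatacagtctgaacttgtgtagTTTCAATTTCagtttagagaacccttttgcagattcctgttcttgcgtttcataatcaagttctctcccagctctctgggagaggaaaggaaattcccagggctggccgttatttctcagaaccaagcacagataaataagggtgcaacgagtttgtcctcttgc
Stat2: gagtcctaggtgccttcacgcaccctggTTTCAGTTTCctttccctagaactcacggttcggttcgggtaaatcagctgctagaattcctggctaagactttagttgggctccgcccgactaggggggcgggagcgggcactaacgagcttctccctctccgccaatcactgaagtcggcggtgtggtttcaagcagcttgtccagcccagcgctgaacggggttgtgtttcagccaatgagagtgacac
The 3 genes had 8 and 40 UMIs (Gbp2, log2 ratio 3.16), 5 and 59 (Gbp5, 4.40) and 47 and 63 (Stat2, 1.26).

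Glucocorticoid response genes were lower. In HF-HHT members 10 of the 16 measured were lower and 3 higher, against 13.3% lower over all genes. The median was -1.27, and the list summed to 3358 and 1321 CPM. Fkbp5 (chromosome 17, 28399094 to 28517527), a co-chaperone of the glucocorticoid receptor that the receptor itself induces, was at 1341 CPM (695 UMIs in 133 nuclei) and 200.01 CPM (58 UMIs in 34 nuclei), a log2 ratio of -2.75 (-3.16 to -2.36). Zbtb16 was at 546 and 166 CPM (-1.72, interval -2.20 to -1.28), and Ddit4, an inhibitor of mTORC1, had 42 and 2 UMIs (-3.55, interval -6.65 to -1.61). Of the list, Tgfbr3 had 19 and 23 UMIs (1.11, interval 0.17 to 2.07). The receptor gene Nr3c1 was at 357 and 317 CPM (-0.17, interval -0.55 to 0.20). In Clec9a/Xcr1 nuclei 7 of 9 were lower and none of the 9 higher (median -1.70), and Fkbp5 had 362 and 9 UMIs (-3.57, interval -4.71 to -2.63). In Flt3-only nuclei it had 140 and 6 UMIs. The list was also lower in macrophages, with 10 of 19 lower, 2 higher and a median of -0.60, where Fkbp5 was at a log2 ratio of -1.71. Free RNA held 4175 and 2753 CPM of it, and with free RNA subtracted the median in members was -1.43.

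**Figure D3:**
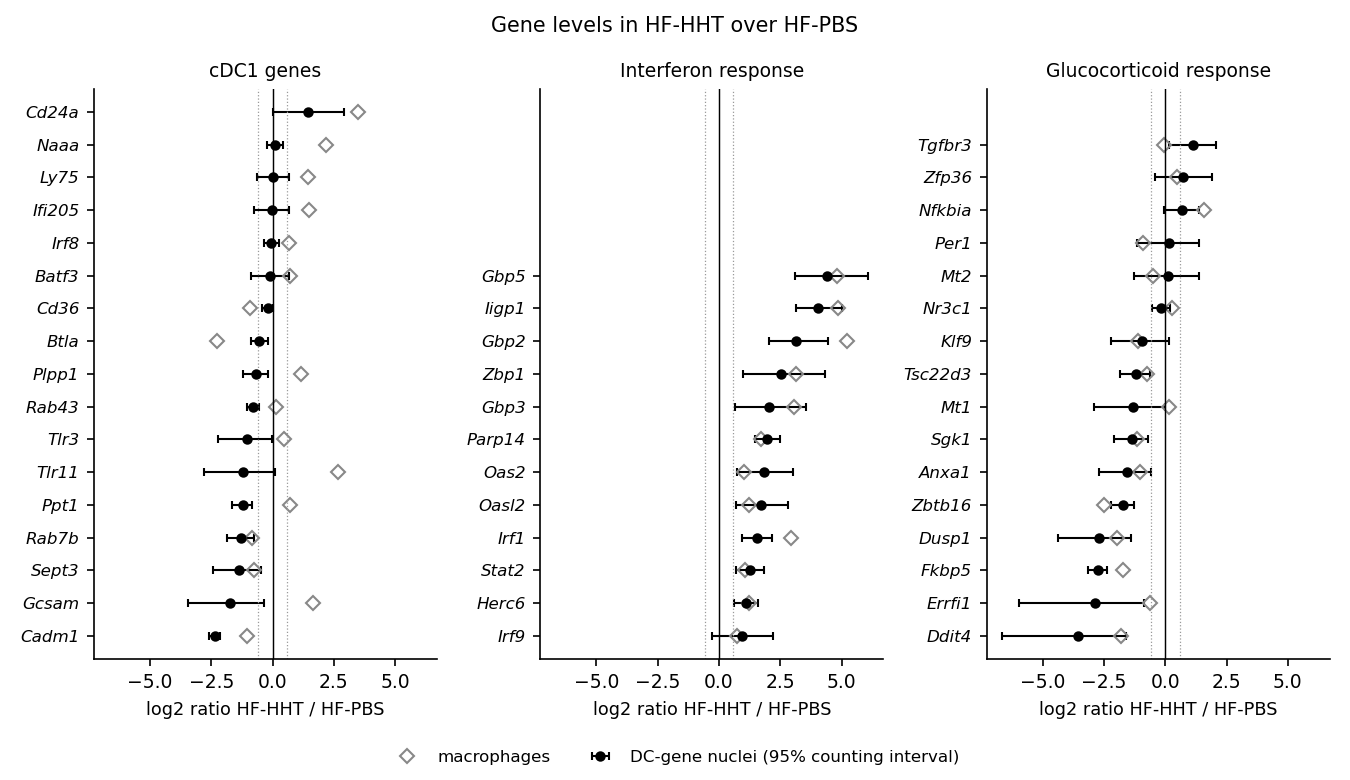
Log2 ratio of HF-HHT over HF-PBS for genes of 3 lists in DC-gene nuclei (black, with exact 95% counting intervals) and in macrophages (open diamonds); dotted lines mark 1.5-fold. The interferon genes shown lie to the right of equality, 10 of 16 glucocorticoid genes are lower, and Cadm1 is the lowest cDC1 gene (-2.37).

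Stress and growth lists showed smaller differences. Of 17 genes of ER chaperones and the unfolded protein response 6 were higher and none of the 17 lower (median 0.34), with 7 of 12 higher in Clec9a/Xcr1 nuclei (median 0.65). Its transducer Atf6 was at 604 and 579 CPM. Of 6 measured ATF4 targets of the integrated stress response 3 were higher (median 0.51), and Atf4 itself had 23 and 12 UMIs (-0.10, interval -1.24 to 0.96). Cell division genes summed to 789 and 1386 CPM, with 9 of 14 higher (median 0.86). Top2a, a topoisomerase of dividing cells, had 4 UMIs in 2 nuclei and 26 UMIs in 5 nuclei. Of 15 arrest and secreted senescence genes 5 were higher and 5 lower (median 0.03). Mmp12, a macrophage elastase gene, had 61 and 1 UMIs, and free RNA held 941 and 94.0 CPM of it. Of 5 clock genes 2 were higher and 1 lower, and Arntl had 37 and 6 UMIs (-1.79, interval -3.32 to -0.53).

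**Figure D4:**
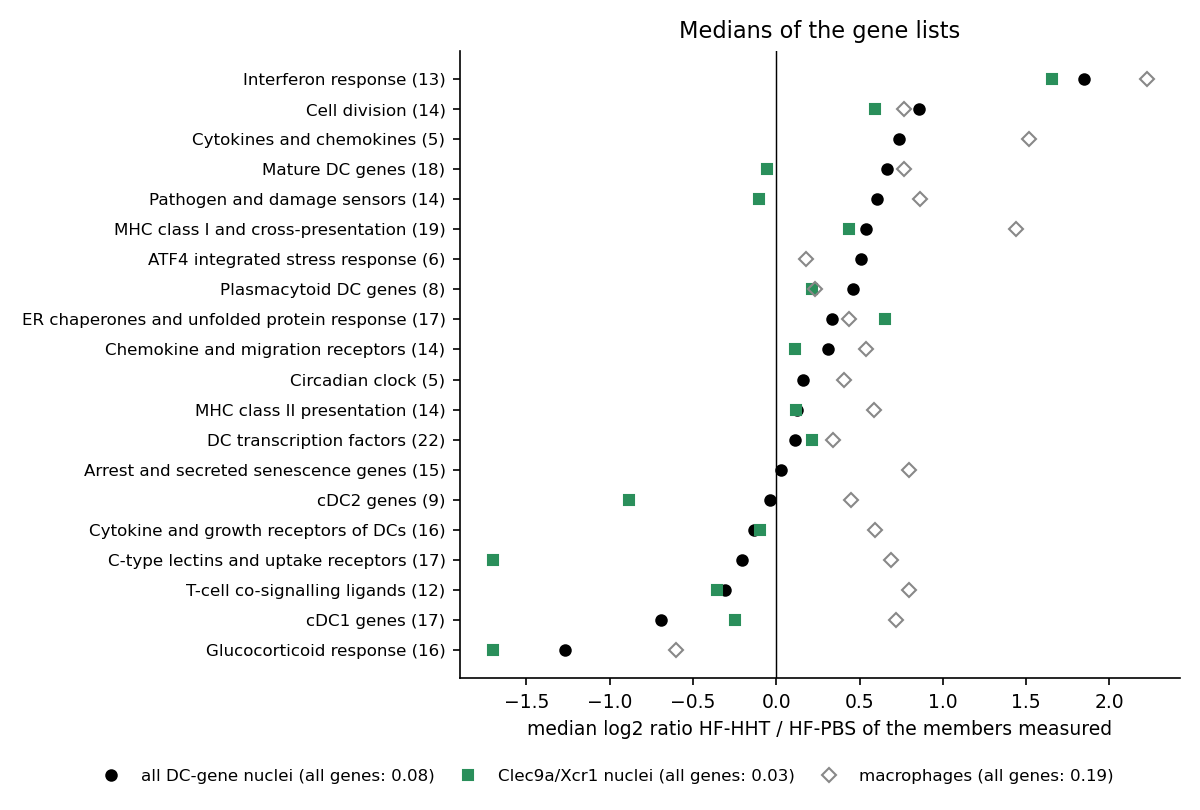
Median log2 ratio of HF-HHT over HF-PBS over the measured members of 20 gene lists (number of genes in DC-gene nuclei in parentheses) in all DC-gene nuclei, Clec9a/Xcr1 nuclei and macrophages. Points are shown where at least 5 genes were measured. In Clec9a/Xcr1 nuclei this leaves out the ATF4, cytokine and chemokine, senescence and clock lists. The legend gives the median over all genes. The interferon list is the highest and the glucocorticoid list the lowest in DC-gene nuclei (1.85 and -1.27), and the cDC1 list has a median of -0.69 against 0.72 in macrophages, where its summed level was nevertheless below that of HF-PBS (5509 and 3307 CPM).

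Among genes with at least 30 UMIs in the higher library, 3 in the other and 2 times the level of free RNA, the 10 highest ratios over all members were those of Rbfox1, Sdk1, Ldb2, Cyyr1, Syn3, Etl4, Hspa12b, Mecom, Adgrl4 and Dach1, at log2 ratios of 5.38 to 3.52. Of the 70 Rbfox1 UMIs in HF-HHT 67 came from 1 nucleus, and of the 103 Sdk1 UMIs 85. Ldb2, Cyyr1, Mecom and Adgrl4, known from endothelium, had 81 of 82, 43 of 43, 97 of 97 and 34 of 34 of their HF-HHT UMIs in nuclei without Flt3, Clec9a or Xcr1. Syn3, with 3 and 30 UMIs, had all of them in Flt3-only nuclei. Markers of other cells differed by at least 1.5-fold between the libraries in these members for some lists and by less for others. Adipocyte markers summed to 224 and 569 CPM, erythroid markers to 15.4 and 335 CPM, B-cell markers to 390 and 507 CPM, T-cell markers to 54.0 and 75.9 CPM, NK and ILC markers to 156 and 234 CPM, neutrophil and mast-cell markers to 25.1 and 72.4 CPM, APC (adipocyte progenitor cell) markers to 834 and 766 CPM and mesothelial and epithelial markers to 1.93 and 75.9 CPM. The B-cell sum (1.30-fold) was short of 1.5-fold. So were the T-cell sum (log2 ratio 0.49, interval -0.39 to 1.35) and the APC sum (-0.12, interval -0.36 to 0.11). The B- and T-cell lists include the genes that the membership rule held to at most 1 UMI. From adipocyte genes, free RNA was put at 19.4% and 8.71% of members' UMIs and 12.98% and 9.86% of those of Clec9a/Xcr1 nuclei. Apart from the subtraction given above, the part of these sources in the gene ratios was not tested.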

How the data were processed

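Nuclei of frozen epididymal white adipose tissue were sequenced as 2 libraries of the 10x v3.1 kit for 3' ends, each a pool of 3 mice, 1 per condition. The authors deposited whole-number UMI counts per gene and barcode, made with Cell Ranger 5.0.0 on mm10 per the labels (the submitters' processing notes). The headers of the counts and the paper's reporting summary name other versions of Cell Ranger. On the counting of intron reads the sources used here give nothing. From these counts, barcodes with at least 500 UMIs, more than 400 genes and under 0.5% mitochondrial UMIs were kept as eligible nuclei. Scrublet as run in scanpy 1.11.5 called 0 doublets at its automatic limit, so none were removed in the main values, and leaving out the highest scores is an alternative.

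The members were chosen on their measured UMIs of the 6 genes, and these cells, the rule and all lists were chosen with earlier results of these data known. Other nuclei were classed by at least 3 UMIs and 0.15% of UMIs of their class genes, those in 2 classes left out. Genes with at least 20 UMIs over both libraries were compared as summed UMIs scaled to CPM (numpy 2.4.6, scipy 1.17.1), with exact Poisson intervals for counts, Clopper-Pearson intervals for shares and exact conditional binomial intervals for ratios. A count of 0 was set to a floor of 3 counts in ratios. PCR copies are collapsed by UMIs, and intervals cover counting error only. The script was tested on simulated data.

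Genes were named by a fixed rule: the 6 rule genes, the 12 with the highest ratio to all other eligible nuclei (at least 20 UMIs in each library), the 10 highest and 10 lowest ratios (at least 30 UMIs in the higher library, 3 in the other and 2 times free RNA), and up to 6 members of each DC list or 4 of each other list. Predicted genes were not named, and a few genes are not reported here. Irf8, Batf3, Nr3c1, Gbp2, Stat2, Grap2, Kynu, Ccr2, Cst3 and Fcgr2b were named after their values were seen. Gene positions are from GENCODE vM21. Free RNA was read from low-count barcodes.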

Additional observations from a re-analysis of the deposited data

Results flagged for a closer look

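Of the named genes, 5 differed by at least 1.5-fold in one direction in DC-gene nuclei and in the other direction in macrophages of the same libraries. Both counting intervals had to leave out equality. The same was not counted over all genes, so no background share is given. The difference was not tested, since each condition had 1 library. Itga8 had a log2 ratio of HF-HHT over HF-PBS of -2.92 in DC-gene nuclei and 2.51 in macrophages, and P3h2 -1.81 and 1.45. Cd209a, a lectin gene, was at -1.69 and 1.32. Dach1 was at 3.52 in DC-gene nuclei and -1.48 in macrophages, with 33 of its 45 HF-HHT UMIs in nuclei without Flt3, Clec9a or Xcr1. Runx2 was at 0.91 and -1.08, and 1 HF-HHT nucleus gave 38 of its 148 UMIs. With counting error only, the gap between both ratios was -5.43 (-7.27 to -3.59) for Itga8 and 1.99 (1.63 to 2.35) for Runx2.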

How the results depend on the processing

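With 1 library per condition the differences have no replicate check, and the 27 Clec9a/Xcr1 nuclei of HF-HHT limit the depth. No paired analysis was possible because each condition has 1 library. The limit on B- and T-cell genes lifted, nuclei with a Flt3, Clec9a or Xcr1 UMI only, and each gene without its leading nucleus were alternatives chosen after seeing the data. The log2 ratio of the Clec9a/Xcr1 share ranged from -1.64 to -0.78 over 20 alternatives, and list medians from 1.54 to 2.12 (interferon), -1.70 to -0.55 (glucocorticoid) and -0.92 to -0.10 (cDC1) over 25.

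The log2 ratio of the share of all members was -1.24 with a rule share of 0.3%, -1.62 without the limit on B and T genes (367 and 109 nuclei) and -0.064 among nuclei with a Ptprc UMI. Genes higher in HF-HHT numbered 749 with a rule share of 0.3%, 790 with rule genes other than Wdfy4, 454 with at least 50 UMIs, 5721 with at least 1 UMI and 733 in Clec9a/Xcr1 nuclei. Genes lower numbered 1351 without the limit on B and T genes, 408 with at least 50 UMIs and 2806 with at least 1 UMI. The causes were not tested, beyond the numbers of genes and nuclei that each setting fixes.

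Turns of direction were listed only for medians and genes at least 1.5-fold from equality in the main values. Medians that turned direction were those of the mature DC list (-0.054 in Clec9a/Xcr1 nuclei and -0.061 in nuclei without Clec9a or Xcr1), of sensors (-0.071 with a rule share of 0.3%, -0.26 without Wdfy4, -0.10 in Clec9a/Xcr1 nuclei and -0.090 in nuclei with Flt3, Clec9a or Xcr1) and of cell division (-0.0035 without Wdfy4). Among smaller medians, those of the cDC2, plasmacytoid, transcription factor, growth receptor, MHC class II and T-cell ligand lists took both signs over the alternatives. So did those of the migration receptor, ATF4, senescence and clock lists, with the clock list at -1.03 to 0.59. Single genes that turned were Cacnb3 (-0.045 with a rule share of 0.1%), then Sirpa (-0.88), Cd83 (0.62) and Ccr9 (0.0087) with 0.3%, Klri1 (0.25), Cd244a (0.046) and Ikzf3 (-2.67) without the limit on B and T genes, Ccr9 (0.11) and Il15ra (-2.56) in Clec9a/Xcr1 nuclei, and Runx2 (-0.13) and Cd274 (-0.0015) in nuclei without Clec9a or Xcr1. Without the nucleus that held most of its UMIs in each library, Rbfox1 was at 1.43 (-1.70 to 5.01), Sdk1 at 3.01 and Itgae at 0.22 (-1.38 to 1.72). TMM and median-of-ratios scaling shifted all log2 ratios by -0.078 and -0.079.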
